A study of Arabidopsis thaliana with 8 samples.

Results

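The mRNAs described here are those whose level in total RNA was between 4- and 16-fold higher in heat-stressed than in control seedlings of Arabidopsis thaliana. They were chosen by probe set, the group of short probes that reports a gene on the array. A probe set was taken when it was annotated to 1 nuclear gene, when its value on the log2 scale was higher by at least 2 at 38°C than at 22°C in total mRNA of replicate 1 and again of replicate 2, and when the mean of both differences was under 4. The symbols STZ, COR47, CML37 and BZIP28 were left out by choice, and STZ and BZIP28 otherwise met the thresholds, as did nad9 and cox2 of the mitochondrial genome. The rule gave 123 probe sets of 122 genes, out of 13367 probe sets of 13217 nuclear genes with a probe set of their own and 22810 probe sets on the array. Whatever their annotation, 237 probe sets on the array met the thresholds. Apart from the members and the 4 just named, these had no single gene in the annotation. The 123 are thus not all the mRNAs with such a rise. Only 18 of the 123 carry a gene symbol in the annotation used here. The other 105 carry a gene code alone, and no function is given for those except AT1G10050, which has a RefSeq synonym, and AT3G09440, which is on a list of gene codes.

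When a plant is warmed abruptly, heat stress transcription factors switch on genes for chaperones, which keep damaged proteins from clumping or refold them, and for the ubiquitin system, which marks damaged proteins for breakdown. Membrane, cell wall and small-molecule genes respond as well. At the same time most mRNAs lose ribosomes. An mRNA that is being translated carries several ribosomes, and such polysomes sink deeper than free mRNA in a sucrose gradient, so the mRNA in the polysome fractions can be compared with the total.

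Seedlings of the Columbia-0 ecotype, 7 days old and grown at 22°C, were either left at 22°C or incubated at 38°C for 45 min, with no transgene, mutation or other agent in any group. Total mRNA and polysome-bound mRNA of each condition were hybridized to ATH-1 arrays, with 2 arrays in each of 4 groups and 8 arrays in all. Both kinds of RNA came from the same samples. The seedlings were taken whole, so more cells of a type and more RNA per cell cannot be told apart. The values are log2 signals made by robust multi-array averaging (RMA), a method that gives every array the same overall distribution. The heat-stressed polysome-bound columns also carry the authors' polysome-content factor, which scales them to the smaller share of ribosomes found in polysomes after heat and adds -0.84 on the log2 scale in replicate 1 and -0.89 in replicate 2. Their array means were 5.30 and 5.25, against 6.15 to 6.18 on the other arrays. In what follows the factor is kept "as deposited" for levels and heat effects on polysomes, and is divided out where polysome-bound mRNA is set against total mRNA. Of the genes listed as markers of photosynthetic tissue (10), roots (8) and seed storage (8), the annotation named a probe set for 1, so the labelled tissue could not be checked against its markers.

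A heat effect below is the log2 value at 38°C minus that at 22°C. In total mRNA, which chose the members, the mean heat effect ran from 2.12 to 3.98 with a median of 2.73. This is the rule seen again and no finding. It was 2 to 2.5 for 36 members, 2.5 to 3 for 45, 3 to 3.5 for 25 and 3.5 to 4 for 17. Just inside the lower threshold lay AT4G21580 (2.60 in replicate 1 and 2.00 in replicate 2), AT2G07751 (2.78 and 2.01) and AT1G22890 (2.01 and 3.56), and just outside it lay AT3G62780 (2.50 and 1.99), AT5G03560 (2.44 and 1.97) and AT4G05070 (1.96 and 2.21). At the upper end AT3G56250, AT1G35660 and AT3G22090 had means of 3.98, 3.92 and 3.91, while AT4G27450, AT4G15680 and AT1G19530 were left out at 4.01, 4.02 and 4.02. Another 54 probe sets of 1 nuclear gene lay at 16-fold or more.

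Most members did not lie at the low end of the array before the heat. At 22°C their group means in total mRNA ran from 2.85 to 10.60 with a median of 6.46. The median was 6.17 over all probe sets on the array and 5.70 over those of 1 nuclear gene. Below the lower quartile of both arrays lay 8 of the 123, next to 5406 of all 22810 probe sets. After heat the median in total mRNA was 9.39. Polysome-bound mRNA ran alongside, with a median of 6.42 at 22°C and of 8.44 at 38°C as deposited, or 9.30 with the factor divided out. A rise from a dim level is less certain in size than a rise from a bright one. Of the members 7 were below the lower quartile of both polysome-bound arrays at 22°C, next to 5348 of all 22810 probe sets.

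Whether these mRNAs also increased on polysomes was read from their heat effect on the polysome-bound arrays. The rule did not use these arrays, although they hold RNA of the same seedlings. Over all probe sets the mean heat effects in both kinds of RNA correlated with r = 0.93. A high share of calls was therefore likely from the choice of members alone, and the counts below describe the members. The spread behind each p-value of the main fit came from all 8 arrays, including the total arrays that chose the members. Total and polysome-bound arrays of the same seedlings were treated there as independent. In limma, fitted to all probe sets and arrays, 113 of the 123 members rose in polysome-bound mRNA, by at least 2-fold with an adjusted p under 0.05. No heat effect of a member was below 0, the smallest being 0.40. Over the whole array 2.07% of the probe sets rose by the same call and 37.1% fell. With the factor divided out 121 members rose, next to 4.73% of all probe sets, and a fit on the 4 polysome-bound arrays alone called 114 as deposited, next to 2.11%. The median heat effect of the members in polysome-bound mRNA was 1.94 as deposited and 2.80 with the factor divided out, next to medians of -0.85 and 0.02 over all probe sets. Both 38°C arrays were above both 22°C arrays for 122 of the members as deposited, which held for 4.26% of all probe sets, and the exception was AT2G07751. With the factor divided out it held for all 123, next to 31.7%. Of the 36 members with the smallest heat effects in total mRNA 29 rose on polysomes, and of the other bins 43 of 45, 25 of 25 and 16 of 17 did. All 54 probe sets at 16-fold or more rose.

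**Figure D1:**
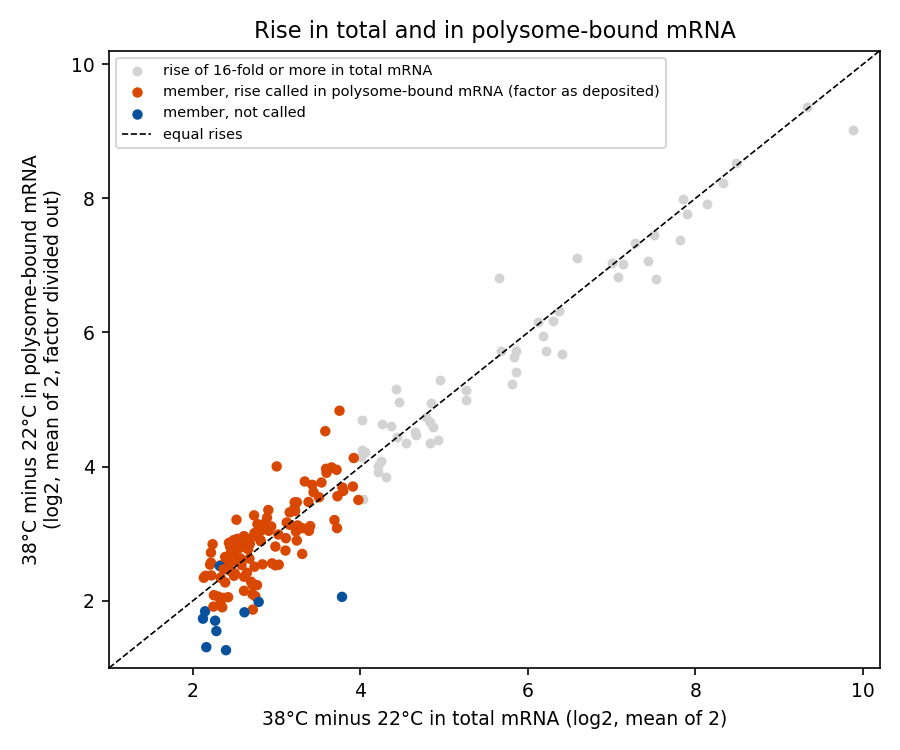
Heat effect in total mRNA (x axis, log2, mean of 2 replicates) against the heat effect in polysome-bound mRNA (y axis, log2, factor divided out). Each point is a probe set of 1 nuclear gene, coloured by whether the rise in polysome-bound mRNA was called with the factor as deposited (113 of 123 members); grey points are the 54 probe sets at 16-fold or more, and the dashed line marks equal effects.

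Function groups, the last being 'other', took in 20 members. All 20 rose in polysome-bound mRNA, with heat effects of 1.2 to 2.86 as deposited. Of the 103 members with no group 93 rose by the same call, so the rise was not particular to the 20 or to any group below. The groups below are small and were formed from symbols and RefSeq synonyms, or in 1 case from a list of gene codes, so their counts describe these members and no wider pathway. The plot of their arrays shows the values with the factor divided out, where the heat effects in polysome-bound mRNA were 2.07 to 3.73. The gap between temperatures in total mRNA there is set by the rule. Polysome-bound values printed for each gene below are as deposited.

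**Figure D2:**
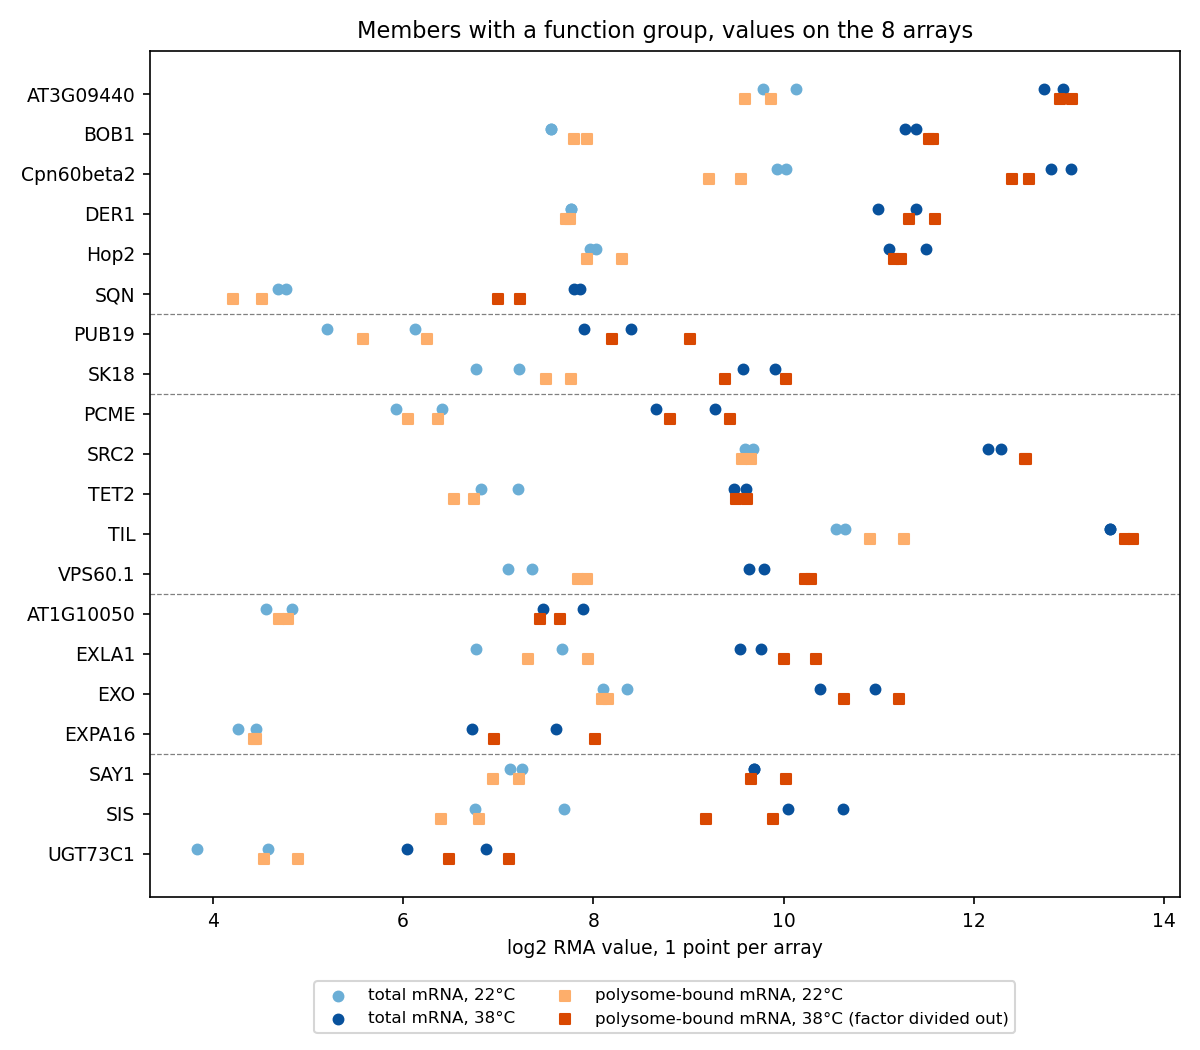
Log2 RMA value (x axis) of the 20 members with a function group (y axis) on each of the 8 arrays, circles for total and squares for polysome-bound mRNA, pale at 22°C and dark at 38°C, with the polysome-content factor divided out. Dashed lines separate, from the top, protein folding and ER, ubiquitin ligases, membranes and lipids, cell wall and growth, and other members.

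Protein folding and the endoplasmic reticulum formed the largest group, with 6 members, all of which rose on polysomes. BOB1 (BOBBER1), a protein with a NudC domain that acts like a small heat shock protein and is needed for thermotolerance, had 7.55 on both total mRNA arrays at 22°C and 11.39 and 11.28 at 38°C. In polysome-bound mRNA it had 7.80 and 7.93 at 22°C and 10.69 and 10.68 at 38°C, so its replicates differed far less than the conditions. It rose 7.06-fold on polysomes (log2 2.82, standard error 0.12, adjusted p = 3.55e-05 from limma over 2 arrays in each group). DER1 (DERLIN-1), of the machinery that pulls misfolded proteins out of the endoplasmic reticulum for degradation, had 7.76 and 7.77 in total mRNA at 22°C and 11.39 and 10.99 at 38°C. On polysomes it went from 7.71 and 7.75 to 10.75 and 10.43, a rise of 2.86 (standard error 0.18, adjusted p = 9.24e-05). BOB1 and DER1 (7.26-fold) had the largest effects on polysomes of the 20.

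Co-chaperones and chaperonins had similar profiles. Hop2, which links the chaperones HSP70 and HSP90, had 7.97 and 8.03 in total mRNA at 22°C and 11.50 and 11.11 at 38°C, and its polysome-bound values were 7.93 and 8.30 against 10.32 and 10.34 (log2 rise 2.22, standard error 0.18, adjusted p = 0.000171 from limma). Cpn60beta2, a subunit of the chaperonin that folds proteins inside the chloroplast, was bright already at 22°C, at 10.03 and 9.93 in total mRNA and 9.55 and 9.22 on polysomes. It reached 13.02 and 12.81 and, on polysomes, 11.74 and 11.51, a rise of 2.24 (standard error 0.17, adjusted p = 0.000136). SQN (SQUINT), a cyclophilin that partners HSP90, had 4.68 and 4.77 in total mRNA before and 7.86 and 7.80 after heat. Its polysome-bound values were 4.52 and 4.21 before and 6.16 and 6.33 after, a rise of 1.88 (standard error 0.15, adjusted p = 0.000155).

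AT3G09440 has no symbol here and was placed by its code on the list of HSP70, HSP90 and HSP100 chaperones, which keep other proteins folded at the cost of ATP. It had 9.78 and 10.13 in total mRNA at 22°C and 12.94 and 12.74 at 38°C, and on polysomes 9.60 and 9.87 against 12.07 and 12.14 (log2 rise 2.37, standard error 0.17, adjusted p = 0.000131 from limma). Of the 25 genes on that list the annotation named 2, both of which rose on polysomes (median 1.93, next to -0.85 over all probe sets). The other, Hsp70-2, missed the membership thresholds with a mean heat effect of 1.95 in total mRNA and rose by 1.49 on polysomes (standard error 0.32, adjusted p = 0.00439). The list of co-chaperones had 10 named probe sets of 18 genes. There 6 rose on polysomes and none passed the test in the other direction (median 2.60), and Hop2 was the only member, with 5 others at 16-fold or more in total mRNA. Hop3, from the same family as Hop2, was among those 5, with a total heat effect of 7.90, while Hop1 had -0.01 in total mRNA and -0.43 on polysomes (adjusted p = 0.0138 from limma, under 2-fold, and 0.44 with the factor divided out). The list of endoplasmic reticulum folding and the unfolded protein response had 6 named genes of 17 (median -0.28, or 0.59 with the factor divided out). DER1 was the only 1 of the 6 called on polysomes. BZIP28, left out by choice, was not on this list. BZIP60, a transcription factor activated when proteins misfold in the endoplasmic reticulum, had 0.47 in total and -0.46 in polysome-bound mRNA. With the factor divided out the latter was 0.41. The calreticulin CRT1b had 0.05 and -0.64 (0.23 with the factor divided out). BZIP17 had 0.92 in total mRNA and 0.77 on polysomes with the factor divided out, ATERDJ3B 0.63 and 0.86, and AT5G07340 -0.23 and 0.10. The lists of heat stress transcription factors, SR splicing factors, peroxide and superoxide scavenging, galactinol and raffinose synthesis and DREB factors had no named probe set, so nothing is reported on them.

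Both members with a ubiquitin ligase symbol rose on polysomes. PUB19, a plant U-box ligase known from drought and abscisic acid responses, had 5.20 and 6.13 in total mRNA at 22°C and 7.90 and 8.40 at 38°C, and on polysomes 5.58 and 6.25 against 7.35 and 8.12. Replicate 2 was the higher in all 4 groups, and the conditions still did not overlap (log2 rise on polysomes 1.82, standard error 0.41, adjusted p = 0.00533 from limma). SK18, of the SKP1-like family of adaptors in SCF ubiquitin ligases, had 7.22 and 6.77 in total mRNA at 22°C and 9.91 and 9.57 at 38°C. Its polysome-bound values were 7.77 and 7.50 at 22°C and 9.18 and 8.49 at 38°C, a rise of 1.2 (standard error 0.27, adjusted p = 0.00566), and without replicate 1 of the heat-stressed polysome-bound arrays it was 0.86 and under 2-fold.

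The 5 members tied to membranes and lipids rose as well. TIL, the temperature-induced lipocalin that guards membranes and is needed for thermotolerance, was bright already at 22°C, with 10.55 and 10.65 in total mRNA at 22°C and 13.43 on both arrays at 38°C. On polysomes it went from 10.91 and 11.27 to 12.75 and 12.78 (log2 rise 1.68, standard error 0.15, adjusted p = 0.000210 from limma). SRC2, a protein with a C2 domain named after a cold-regulated gene of soybean, had 9.68 and 9.59 against 12.29 and 12.15 in total mRNA, and 9.56 and 9.66 against 11.71 and 11.64 on polysomes. Its rise of 2.07 had the standard error 0.13 and an adjusted p of 8.88e-05 from limma. TET2, a tetraspanin that organises membrane domains, had 6.82 and 7.21 against 9.61 and 9.48 in total and 6.53 and 6.74 against 8.77 and 8.61 in polysome-bound mRNA, where it rose by 2.06. PCME, an esterase that removes the methyl group from prenylated proteins, rose by 2.04 there and VPS60.1, of the ESCRT machinery that sorts membrane proteins in endosomes, by 1.51.

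Cell wall and growth genes made a group of 4, all of which rose on polysomes. The expansins loosen the wall so that cells can extend. EXPA16 had 4.45 and 4.26 in total mRNA at 22°C and 6.72 and 7.61 at 38°C, and on polysomes 4.43 and 4.45 against 6.11 and 7.12 (log2 rise 2.18, standard error 0.38, adjusted p = 0.00194 from limma). EXLA1, of the expansin-like family, had 7.67 and 6.77 against 9.76 and 9.54 in total and 7.94 and 7.31 against 9.16 and 9.45 on polysomes, where it rose by 1.68. EXO (EXORDIUM), an extracellular protein of brassinosteroid-dependent growth, had 8.35 and 8.10 against 10.38 and 10.96 in total mRNA. Its polysome-bound values went from 8.15 and 8.09 to 9.79 and 10.32, a rise of 1.94 (standard error 0.25, adjusted p = 0.000635). AT1G10050, with the RefSeq synonym ATXYN2 of a xylanase, an enzyme that cuts a wall polysaccharide, also rose by 1.94. The heat effect in total mRNA was larger in replicate 2 for 3 of these 4 genes, whereas it was larger in replicate 1 for all 6 of the folding group. It was larger in replicate 1 for 66.7% of all members and 52.1% of all probe sets. A contrast between such small groups was not tested.

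Among the remaining named members UGT73C1, an enzyme that attaches glucose to small molecules, had 4.58 and 3.83 in total mRNA at 22°C and 6.87 and 6.04 at 38°C, and rose on polysomes by 1.22 (standard error 0.38, adjusted p = 0.0206 from limma). That call was lost without replicate 2 of the control polysome-bound arrays (1.04, adjusted p = 0.0978) or without replicate 1 of the heat-stressed ones (0.88, adjusted p = 0.116). SIS, listed as Salt Induced Serine rich, rose by 2.07 and SAY1 by 1.90 on polysomes, and no function is given here for either.

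The largest heat effects on polysomes belonged to members known here only by code. AT4G19430 led with 2.78 and 2.81 at 22°C and 7.37 and 6.15 at 38°C, a log2 rise of 3.97 (15.6-fold, standard error 0.52, adjusted p = 0.000690 from limma). Its values at 22°C lay among the lowest on the array, which leaves the size of the rise uncertain. AT4G27657 had 5.36 and 5.12 against 9.31 and 8.49, a rise of 3.66 (standard error 0.31, adjusted p = 0.000185). AT1G35660 rose by 3.26, AT5G45630 by 3.14, AT2G07741 by 3.12, AT3G50560 by 3.10, AT5G58787 by 3.09, AT1G74320 by 3.04, AT1G19020 by 2.91 and AT5G11680 by 2.90. Their replicates did not agree equally well. AT5G58787 had 6.96 and 6.67 against 10.04 and 9.76, and AT1G74320 had 6.29 and 6.26 against 9.35 and 9.28, while AT3G50560 had 4.69 and 6.02 against 7.44 and 9.47, with replicate 2 the higher before and after heat. The call on AT3G50560 (standard error 0.84, adjusted p = 0.0112) was lost without replicate 1 of the control polysome-bound arrays (2.44, adjusted p = 0.0655) or without replicate 2 of the heat-stressed ones (2.09, adjusted p = 0.0671).

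**Figure D3:**
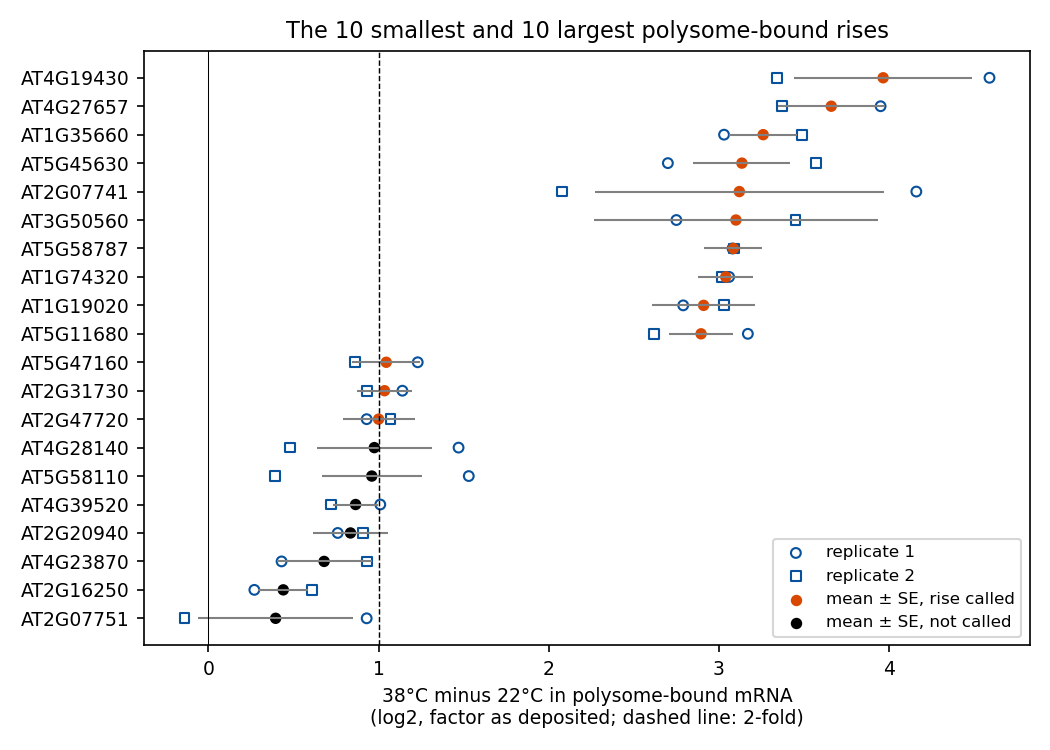
Heat effect in polysome-bound mRNA (x axis, log2, factor as deposited) of the 10 members with the smallest and the 10 with the largest effects (y axis). Open symbols are replicates 1 and 2, filled symbols the mean with its standard error from limma, and the dashed line is 2-fold; AT4G19430 is at 3.97 and AT2G07751 at 0.40.

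At the other end 10 members were not called on polysomes. For AT2G16250, AT2G20940, AT4G28140, AT4G39520 and AT5G58110 the adjusted p was under 0.05 but the effect was under 2-fold. AT4G39520 is the clearest example, since its replicates were close. It had 8.55 on both arrays against 10.71 and 10.63 in total mRNA, and 8.50 and 8.57 against 9.51 and 9.29 on polysomes (log2 0.87, standard error 0.13, adjusted p = 0.00114 from limma). AT5G58110, bright at 9.45 and 9.86 in total mRNA at 22°C, had 12.45 and 12.09 after heat. On polysomes it had 8.79 and 9.55 before and 10.32 and 9.94 after (0.96, standard error 0.29, adjusted p = 0.0187). AT2G16250 had 4.78 and 4.75 against 5.05 and 5.36 on polysomes, an effect of 0.44 (standard error 0.15, adjusted p = 0.0257), next to 2.16 in total mRNA. Part of each gap to the total heat effect is the factor itself, and with it divided out AT4G39520 was at 1.73, AT5G58110 at 1.83 and AT2G16250 at 1.31.

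The other 5 missed the adjusted p. AT1G22890 had 6.99 and 5.93 against 9.00 and 9.49 in total mRNA but 6.38 and 4.90 against 6.53 and 6.98 on polysomes, an effect of 1.12 with the standard error 0.53 (adjusted p = 0.0865 from limma). AT5G01740, described here because it was not called although its effect was 1.65 (standard error 0.75, adjusted p = 0.0742), had 6.69 and 8.01 against 8.29 and 9.71, so that replicate 2 was the higher by over 1 log2 unit in both conditions. AT4G23870 had an effect of 0.68 (adjusted p = 0.0543), AT2G07707 of 1.19 (adjusted p = 0.0873) and AT2G07751 of 0.40 (adjusted p = 0.434). With the factor divided out AT2G07751 and AT5G01740 alone remained uncalled. With the replicate number as a block AT5G01740 (adjusted p = 1.77e-05), AT1G22890 (adjusted p = 0.0421) and AT2G07707 (adjusted p = 0.00946) were called by limma. Some calls also sat close to the 2-fold line: AT2G31730 (1.04), AT5G47160 (1.05) and AT2G47720 (1.00, exactly 2-fold) each fell below it when 1 of the polysome-bound arrays was left out (to 0.97, 0.76 and 0.94).

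The heat effect in polysome-bound mRNA minus that in total mRNA, with the factor divided out, shows whether an mRNA kept pace on polysomes, and 0 is the array average. Because the total arrays chose the members, these differences are described and not tested. A value in total mRNA that is high by chance favours membership and lowers the difference. The median over the members was 0.07, next to 0.01 over all probe sets and -0.13 over the probe sets at 16-fold or more, and the range was -1.72 to 1.08. The median was -0.01 in replicate 1 and 0.06 in replicate 2. The difference was above 0 in both replicates for 52 members (42.3%, next to 33.6% of all probe sets) and below 0 in both for 45 (36.6%, next to 31.2%). At least 1.5-fold above average were 5 members (4.07%, next to 3.05%), and at least 1.5-fold below were 11 (8.94%, next to 3.63%), 9 of them outside the AT2G07 codes described below. Expressed as relative translation efficiency, with the factor as deposited, the members ran from 0.166 to 1.16 with a median of 0.576, next to 0.551 over all probe sets.

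The group medians of this difference were 0.04 for protein folding, 0.10 for membranes and lipids, 0.18 for the cell wall, -0.24 for the ubiquitin ligases and -0.17 for the 3 other members. Within the groups SK18 stood lowest (-0.44 and -0.92 in replicates 1 and 2) and TET2 highest (0.29 and 0.49). In the folding group AT3G09440 (0.15 and 0.55), DER1 (0.25 and 0.35) and Cpn60beta2 (0.04 and 0.30) were above 0 in both replicates and Hop2 (-0.30 and -0.15), SQN (-0.70 and -0.02) and BOB1 (-0.11 and -0.09) below. No shared direction was seen among these chaperones.

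The 5 highest and the 5 lowest differences of 1 sign in both replicates belonged to members known by code only. The highest differences were those of AT4G19430 (0.90 in replicate 1 and 1.26 in replicate 2), AT5G45630 (0.87 and 1.13), AT4G27657 (0.96 and 0.93), AT1G15010 (0.76 and 0.61) and AT2G36950 (0.34 and 0.87). The first 3 were also among the largest effects on polysomes. AT4G19430 was below the lower quartile of all control arrays, in total and in polysome-bound mRNA, and AT5G45630 of both control polysome-bound arrays, so the sizes and order of their differences are uncertain. AT5G45630 had 4.20 and 4.11 against 6.87 and 7.44 in total mRNA and 3.88 and 3.79 against 6.58 and 7.36 on polysomes as deposited, an effect of 3.14 there next to 3.00 in total mRNA. AT1G15010 had 5.21 and 4.81 against 7.44 and 7.62 in total mRNA. On polysomes it had 5.05 and 4.94 against 7.20 and 7.47 as deposited, or 8.04 and 8.36 with the factor divided out. The lowest were AT2G07707 (-1.76 and -1.69), AT2G07751 (-1.01 and -1.26), AT2G16250 (-0.95 and -0.76), AT2G47720 (-1.11 and -0.59) and AT1G22890 (-1.02 and -0.59). AT2G47720 had 3.89 and 3.62 against 6.77 and 6.17 in total mRNA. Its polysome-bound values were 3.39 and 3.27 against 4.32 and 4.34 as deposited, or 5.16 and 5.23 with the factor divided out. All values of AT2G47720 at 22°C lay below the lower quartile as well. Across the 123 members the differences of replicates 1 and 2 correlated with r = 0.70 (0.46 over all probe sets), as a description, since each replicate's difference rests on the same seedlings in all its arrays.

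**Figure D4:**
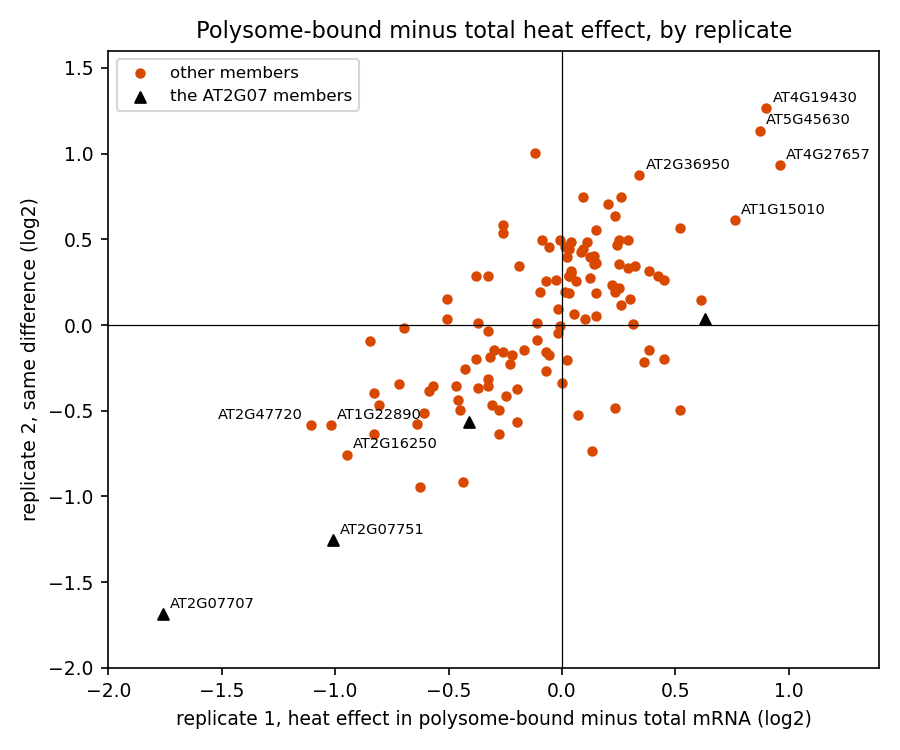
Heat effect in polysome-bound minus total mRNA (log2, factor divided out, 0 is the array average) in replicate 1 (x axis) and replicate 2 (y axis), 1 point per member. The 10 members with the highest and lowest differences of 1 sign are named, and triangles mark the 4 AT2G07 members, of which AT2G07707 is lowest at -1.76 and -1.69.

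Polysome loading is the polysome-bound minus the total value in 1 condition, again with the factor divided out at 38°C. At 22°C, before the heat, the members were loaded about as the array as a whole, with a median of -0.01 (0.00 over all probe sets) and 110 of 123 within 1.5-fold of the average. The others were 6 above (4.88%, next to 1.31% of all probe sets) and 7 below (5.69%, next to 2.58%). At 38°C the median was 0.07 and 97 were within 1.5-fold, with 8 above (6.50%, next to 4.10%) and 18 below (14.6%, next to 5.26%). Without the 4 AT2G07 probe sets 14 were below. Of the probe sets at 16-fold or more 11.1% were above and 1.85% below at 22°C, and 9.26% above and 3.70% below at 38°C. The total arrays chose the members, so a total value high by chance at 38°C lowers the loading there. A total value low by chance at 22°C raises the loading at 22°C. These shares are described and were not tested.

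A few members held an extreme loading at both temperatures. AT2G21640 had loadings of 0.93 at 22°C and 1.19 at 38°C, AT4G15660 of 0.87 and 1.29 and AT4G15700 of 0.89 and 1.43, the highest of the members in both conditions. AT5G23380 had -1.47 at 22°C and -1.03 at 38°C. Others changed. AT4G27657 went from -0.76 to 0.19, whereas AT2G07707 went from -0.71 to -2.43 and AT5G58110 from -0.49 to -1.27. AT1G22890, at -0.82 and -1.62, was poorly loaded before heat and more so after it. SK18 had 0.64 at 22°C and -0.04 at 38°C. VPS60.1 was well loaded at both (0.66 and 0.54), and SIS poorly at both (-0.63 and -0.80).

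The 4 members with AT2G07 codes, AT2G07707, AT2G07722, AT2G07741 and AT2G07751, come from a stretch of chromosome 2 that is known to hold a copy of much of the mitochondrial genome. They are also the only 4 members whose probe sets have the suffix that marks probes matching several transcripts, while the other 119 do not. Whether nuclear or mitochondrial RNA gave their signal cannot be told apart here. AT2G07722 had 3.89 and 4.00 in total mRNA at 22°C and 8.78 and 6.49 at 38°C, and on polysomes 3.62 and 3.73 against 7.26 and 4.76. AT2G07741 had 5.55 and 4.87 against 9.92 and 7.81 in total mRNA and 4.07 and 3.94 against 8.23 and 6.02 on polysomes. In all 4 the heat effect was larger in replicate 1 than in replicate 2, in total and in polysome-bound mRNA. AT2G07722 (2.34, standard error 0.92, adjusted p = 0.0472 from limma) and AT2G07741 (3.12, standard error 0.85, adjusted p = 0.0116) were called on polysomes, and AT2G07741 was not without replicate 1 of the heat-stressed polysome-bound arrays (2.02, adjusted p = 0.0619). All 4 had a loading more than 1.5-fold below average at 38°C.

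The gap between replicates was wider at the median in the members than over the array, which was not tested. The heat effect in total mRNA differed between replicates by a median of 0.35 in absolute size, next to 0.23 over all probe sets. It was 0.42 over the probe sets at 16-fold or more, so a wide gap at the median was not particular to the members. The gap was over 1 in 14 of the 123 members, 3 of them with AT2G07 codes. That compares with 3 of the 54 probe sets at 16-fold or more and 569 of all 22810 probe sets. The effect was larger in replicate 1 for 82 members (66.7%, next to 52.1% of all probe sets and 72.2% at 16-fold or more). For 98 of the 123 the same replicate had the larger effect in total and in polysome-bound mRNA (79.7%, next to 64.6% and 66.7%). The gap between replicates correlated between both kinds of RNA with r = 0.84 (0.57 over all probe sets and 0.56 at 16-fold or more). This is a description over members whose arrays share 2 seedling samples per condition. AT4G19430 (4.53 and 2.97 in replicates 1 and 2) was among those with the larger effect in replicate 1, and AT3G50560 (2.98 and 4.20), AT1G22890 (2.01 and 3.56) and EXPA16 (2.27 and 3.35) among those with the larger effect in replicate 2.

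Several members lie near each other on a chromosome by the RefSeq annotation. AT2G41160 and AT2G41170 are next to each other with 0 coding genes between them and no overlap of their spans. AT2G41160 had 7.95 and 8.23 against 11.79 and 11.83 in total mRNA and rose by 2.22 on polysomes (adjusted p = 9.03e-05 from limma), and AT2G41170 had 6.11 and 6.23 against 9.36 and 9.59 and rose by 1.83 (adjusted p = 0.000140). Their polysome-bound effects fell short of the total ones to a like degree, with differences of -0.64 and -0.61. Hop2 (AT1G62740) and AT1G62760 have 1 coding gene between them, as do AT4G21310 and AT4G21323, and AT4G27652 and AT4G27657. Neighbours did not always match, since AT4G27657 had a difference of 0.95 and AT4G27652 of -0.46. AT4G15660 and AT4G15700, alike in their high loading, are separated by 3 coding genes, and so are TIL (AT5G58070) and AT5G58110. Whether neighbours were alike more often than other pairs was not tested.

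Where a gene had a further probe set, the probe sets did not always match. Both probe sets of AT1G16040 were members, with total heat effects of 3.03 and 2.77 and rises of 1.67 and 1.37 on polysomes. A further probe set of DER1 had values of 2.03 to 2.95 on all arrays, with a heat effect of 0.35 in total and -0.53 in polysome-bound mRNA. A further 1 of SQN had -0.15 and -0.75, and a further 1 of AT1G62760 had 0.05 and -0.77. These polysome-bound values carry the factor. All 3 were dim, with no value above 3.37, and the results given for DER1, SQN and AT1G62760 rest on the brighter probe set of each.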

How the data were processed

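The authors deposited log2 values per probe set, made by RMA with affy (version not given in the sources used here), with the polysome-content factor already in the heat-stressed polysome-bound columns. All columns of values were used. The methods call the 2 replicates biological, and 2 arrays per group limit the precision. The factor was divided out for differences and loadings. Heat effects came from limma 3.58.1, run in R 4.3.3 on the 8 arrays with a mean for each of the 4 groups (lmFit, eBayes). The p-values were adjusted by Benjamini-Hochberg across the 22810 probe sets, and a call needed at least 2-fold with an adjusted p under 0.05. The fit was tested on simulated data with independent arrays. That test does not cover the correlation between arrays of the same seedlings, so it cannot show that the p-values are right here. Differences and loadings contain the total arrays that chose the members and were not tested. The platform annotation gave 13513 probe sets 1 gene, 503 several and 8794 none, and 77 of the 13513 did not match RefSeq TAIR10.1, which was used for names, chromosomes and neighbours. Sequences were not analysed here. The members and the lists of genes were chosen with earlier results of these data known. The genes named are the 10 members with the highest and the 10 with the lowest polysome-bound heat effect, the 5 highest and 5 lowest differences of 1 sign in both replicates, the 3 probe sets on each side of each threshold, list members and up to 6 of each function group. Members described for their loading, replicate gap, AT2G07 code, position or lack of a call were added after their values were seen.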

Additional observations from a re-analysis of the deposited data

How the results depend on the processing

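The number of members that rose in polysome-bound mRNA, 113 as reported, was 99 with treat of limma set at 1.5-fold, 121 with the polysome-content factor divided out, 122 with arrays centred on their medians, 121 after cyclic loess, 114 on the 4 polysome-bound arrays alone, 111 of the probe sets with a highest group mean of at least 6, 110 with 1 value per gene and 103 to 114 with 1 array left out. With the replicate number as a block it was 116, the 113 and AT5G01740, AT1G22890 and AT2G07707. The deviations of same-numbered arrays from their group means correlated with r = 0.79 between total and polysome-bound mRNA at 22°C and 0.76 at 38°C, which share seedling samples, and with r = 0.52 in total and 0.44 in polysome-bound mRNA between temperatures. The labels do not say that a number joins the temperatures, although the methods took the polysome content at 38°C relative to 22°C within each replicate, and with 2 replicates the correlations do not settle it. The median heat effect on polysomes, 1.94, became 2.80 with the factor divided out, 2.95 with arrays centred on their medians, 2.94 after cyclic loess and 1.91 with 1 value per gene, and 1.93 to 1.96 with 1 array left out. The scalings other than that of the authors remove the factor.

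The median difference between heat effects, 0.07, was 0.008 with arrays centred on their medians, -0.087 to 0.063 with 1 array left out and -0.80 with the factor kept, an alternative chosen after seeing the data. Its sign is thus not settled. The median loading at 22°C, -0.01, ran from -0.07 to 0.055 with 1 array left out. The median loading at 38°C, 0.07, was 0.045 with arrays centred, 0.082 after cyclic loess, 0.068 with the brightness limit or 1 value per gene, -0.012 to 0.098 with 1 array left out, and, in alternatives chosen after seeing the data, 0.098 without the AT2G07 probe sets and -0.80 with the factor kept. Centring the arrays on their medians before the rule was applied gave 149 members, 118 of them shared, and cyclic loess 137, with 120 shared.

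For the 47 named members 697 of 751 values under alternatives kept their direction and side of the threshold, 17 lost the call, 36 gained it and 1 changed sign. The last was AT2G07751, not called, at -0.095 without replicate 1 of the heat-stressed polysome-bound arrays and at most 0.885 with another array left out. SQN fell below 2-fold (0.57) with 1 value per gene, where its dim second probe set is averaged in. With 2 arrays per group, leaving out 1 leaves a lone array that is assumed to vary like the other groups, and it breaks the pairing of total and polysome-bound RNA.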
